A study of Homo sapiens with 6 samples.

Results

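Transcripts of 8 chemokine genes were followed in BEAS-2B, a line of immortalised epithelial cells from human bronchus, after the cells had been given ZQ (Zhenqi Granules, a herbal preparation) and then met methicillin-resistant Staphylococcus aureus (MRSA). The 8 genes were CXCL1, CXCL2, CXCL3, CXCL5, CXCL6, CXCL8, CCL2 and CCL20, chosen by name as the ligands that draw neutrophils, monocytes and CCR6-bearing cells. Each matched a single row of the 60892 rows of the deposited count table. The ZQ group (n = 3 libraries) was pretreated with ZQ at 10 mg/mL for 24 h, the control group (n = 3 libraries) with medium for 24 h, and MRSA was then present in both groups for 2 h at 1 bacterium per cell. All cells were wild type and of this cell line alone, and no group was without bacteria, so the response to MRSA itself was not measured. The series asks whether ZQ dampens the inflammatory response of infected airway epithelium.

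Chemokines are small secreted proteins that guide leukocytes along gradients, and airway epithelium is among the first cells to release them when bacteria arrive. The CXC ligands with an ELR motif (CXCL1, CXCL2, CXCL3, CXCL5, CXCL6 and CXCL8) attract neutrophils through CXCR2, and CXCL6 and CXCL8 also use CXCR1. CCL2 attracts monocytes through CCR2, and CCL20 attracts dendritic cells and lymphocytes through CCR6. Their transcripts are short-lived and are induced by NF-kB and AP-1 factors downstream of Toll-like, interleukin-1 and tumour necrosis factor receptors.

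ZQ libraries held 2064566 to 2451746 counts and control libraries 11665967 to 14699677, a mean depth 5.95 times greater in the controls. The labels do not say whether replicate libraries were grown as separate cultures, and the p-values therefore reflect spread among libraries that may be technical. Mitochondrial transcripts took 39.6% ± 1.15 of ZQ counts and 8.74% ± 1.56 of control counts (SD, n = 3 each). The epithelial keratin KRT18 stood at 684 ± 81.4 CPM (counts per 1000000 library counts, after TMM scaling of the library totals) in ZQ cells and 690 ± 80.3 CPM in control cells. Other keratins differed: KRT7 stood at 471 ± 65.4 and 154 ± 37.5 CPM, KRT8 at 674 ± 30.1 and 1590 ± 641 CPM, and KRT19 at 1.17 ± 1.2 and 5.69 ± 0.194 CPM in ZQ and control cells. The epithelial adhesion genes EPCAM and CDH1 were near 0, with 13 and 10 counts over the ZQ group and 45 and 6 counts over the control group. Of the other defining markers, the leukocyte gene PTPRC had 2 and 10 counts over the ZQ and control groups, the endothelial gene PECAM1 had 34 and 2, and the fibroblast collagen COL1A1 stood at 113 ± 18.8 and 391 ± 161 CPM. The mesenchymal filament gene VIM stood at 1510 ± 155 and 460 ± 34.6 CPM. In ZQ and control libraries the 7 epithelial markers summed to 1700 to 1940 and 1830 to 3290 CPM, and the 6 mesenchymal markers to 1430 to 1730 and 801 to 1030 CPM. The 10 leukocyte markers summed to 9.57 to 21.0 CPM in ZQ and 4.2 to 5.98 CPM in control libraries, and the 4 endothelial markers to 17.9 to 20.6 and 0.92 to 2.1 CPM. The leukocyte markers LYZ and S100A8 had no count in any library. CD14 had 1 count over the ZQ group and 217 over the control group and was called lower. CSF3R had 17 and 1 and was called higher. CD14 and CSF3R each passed the filter on low counts through a single group, the one in which it was higher. Neither call could therefore have gone the other way. ITGAM, which was not tested, had 35 and 1. Raw counts on 386 olfactory receptor genes, used here as a gauge of background, numbered 378 to 503 in ZQ and 40 to 57 in the deeper control libraries. Their 99th percentile was 16.0 ZQ counts per kb of exon. PECAM1, CSF3R and ITGAM, at 4.38, 2.02 and 6.15, lay below it. What part these differences had in the chemokine values was not tested.

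Most of these chemokine transcripts were lower with ZQ. CXCL8, CXCL1, CXCL2, CXCL3 and CCL2 fell, that is 5 of the 8 genes, and none rose. CXCL6 and CCL20 did not pass the test, and CXCL5 had too few counts to be tested. Calls were made with the quasi-likelihood test of edgeR at a threshold of 0.05, adjusted over all 12994 genes that passed the filter on low counts, 7 of them chemokines of this set. Of all tested genes 38.3% were called, 19.0% lower and 19.3% higher with ZQ. The median log2 change was -1.59 over the 5 neutrophil chemokines that passed the filter, and 0.03 over all tested genes. The split between lower and higher calls over all genes depended on scaling, with 2472 lower and 2506 higher as reported here, 1611 and 3767 with upper-quartile scaling, and 3580 and 1752 by library totals. Under these scalings the median of all genes moved to 0.48 and -0.37 on the log2 scale. The same 5 chemokines were called lower under each of the 3 scalings, and 4 of them, without CXCL8, when base composition and length were corrected for.

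The 8 genes together made up 181, 133 and 158 CPM in ZQ libraries, against 525, 525 and 533 CPM in control libraries. Every ZQ library lay below every control library, and the control libraries were nearly equal. Mitochondrial reads filled much of the ZQ libraries, so the sum was also taken as CPM of the non-mitochondrial counts, where it was 259, 191 and 228 in ZQ and 660, 668 and 666 in control libraries. The log2 difference of the sums was -1.76 in scaled CPM, -2.16 as a share of all counts and -1.57 as a share of counts outside the mitochondrial genome. In bulk RNA, fewer cells that make a transcript and less transcript per cell cannot be told apart.

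**Figure D1:**
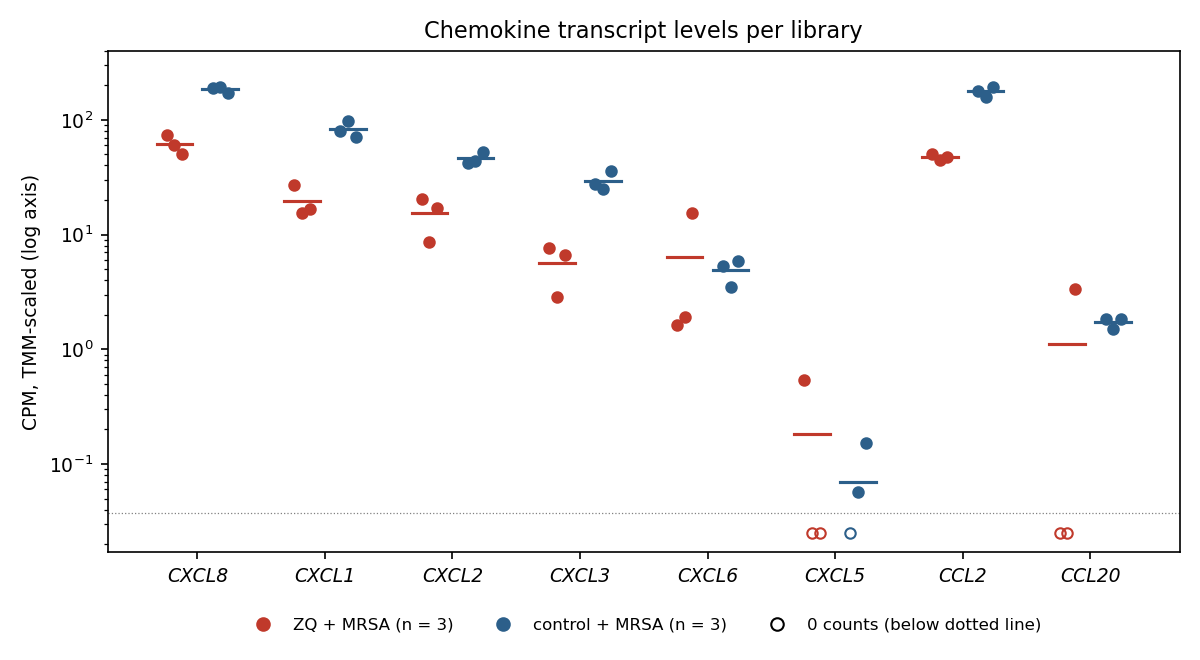
Level of each chemokine transcript in each library, in TMM-scaled CPM on a log axis. Points are libraries (ZQ left, control right, n = 3 each), horizontal bars are group means, and open circles below the dotted line are libraries with 0 counts. The ZQ points of CXCL8, CXCL1, CXCL2, CXCL3 and CCL2 lie below every control point, while those of CXCL6, CXCL5 and CCL20 do not.

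CXCL8 (interleukin-8), a potent neutrophil attractant, fell to 73.3, 59.9 and 50.8 CPM in ZQ libraries, against 188, 194 and 172 CPM in control libraries. The raw counts were 135, 125 and 92 with ZQ and 2772, 3374 and 2258 in controls, so depth did not limit this gene. The ZQ mean of 61.4 ± 11.3 CPM was 0.332 of the control mean of 185 ± 11.2 CPM (SD, n = 3 each), and the groups did not overlap, a separation in this direction that 28.0% of all tested genes also showed. The log2 change was -1.59 ± 0.20 (SE, edgeR adjusted p = 0.00027). With per-library offsets for the GC content and length of the transcript, the change was -0.04 ± 0.23 (SE, edgeR adjusted p = 0.91), so the call for CXCL8 was lost. The gene lies on GRCh38 at chr4:73740506-73743716 on the plus strand, and 33.4% of the bases of its longest coding transcript are G or C.

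CXCL1, CXCL2 and CXCL3, the GRO chemokines, sit in the same cluster on chromosome 4 and attract neutrophils through CXCR2. CXCL1 (chr4:73869393-73871242, plus strand) had 27.2, 15.3 and 16.6 CPM in ZQ libraries, against 80.2, 98.0 and 71.0 CPM in control libraries. Its change was -2.08 ± 0.32 on the log2 scale (SE, edgeR adjusted p = 0.00069), and no ZQ library came near the lowest control. CXCL2 (chr4:74097035-74099293, minus strand) had 20.6, 8.62 and 17.1 CPM with ZQ, against 42.1, 44.0 and 52.1 CPM in controls. Its change of -1.58 ± 0.39 (SE, edgeR adjusted p = 0.0091) was called in the fewest alternatives of the 5 (16 of 18), since the call was lost without control replicate 1 (-1.49, adjusted p = 0.052) and without control replicate 3 (-1.32, adjusted p = 0.073). CXCL3 (chr4:74036589-74038807, minus strand) had 7.61, 2.87 and 6.63 CPM with ZQ, against 27.5, 24.8 and 36.1 CPM in controls. At -2.38 ± 0.48 (SE, edgeR adjusted p = 0.0032) it had the most negative log2 change of the called chemokines, but it rests on 14, 6 and 12 counts in the ZQ libraries. Its 14.4 ZQ counts per kb of exon did not exceed the 99th percentile of the olfactory receptor genes, 16.0. The 3 transcripts are partly alike: 5.73% of the 50-base stretches of the CXCL1 transcript, 9.24% of those of CXCL2 and 5.26% of those of CXCL3 occur in another of the 8 transcripts. The sources used here do not say how reads from such stretches were assigned, and a small part of the counts could belong to a neighbour.

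Promoters of CXC members are shown with matches to short sequence elements marked. Whether these elements bear on the changes was not tested. Of the 8 genes 7 had an entry, all but CCL2. The windows are the 150 bases before the transcription start in RefSeq (GRCh38.p14), read 5′ to 3′ on the strand of the gene, and capitals mark every match to the letters GGAATTTCC or TGANTCA on either strand.
CXCL8: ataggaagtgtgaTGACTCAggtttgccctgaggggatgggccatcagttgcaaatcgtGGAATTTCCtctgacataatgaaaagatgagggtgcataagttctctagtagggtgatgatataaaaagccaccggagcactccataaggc
CXCL1: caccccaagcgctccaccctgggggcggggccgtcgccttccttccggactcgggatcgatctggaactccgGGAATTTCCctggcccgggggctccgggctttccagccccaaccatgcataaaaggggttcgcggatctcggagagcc
CXCL2: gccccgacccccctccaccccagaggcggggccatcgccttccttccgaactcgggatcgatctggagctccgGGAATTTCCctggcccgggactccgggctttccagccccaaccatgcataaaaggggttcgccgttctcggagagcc
CXCL3: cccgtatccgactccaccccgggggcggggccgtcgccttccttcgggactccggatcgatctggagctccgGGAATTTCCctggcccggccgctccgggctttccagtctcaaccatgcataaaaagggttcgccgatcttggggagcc
CXCL6: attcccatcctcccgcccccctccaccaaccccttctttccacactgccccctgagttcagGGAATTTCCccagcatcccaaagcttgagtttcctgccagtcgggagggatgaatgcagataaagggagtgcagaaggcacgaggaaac
Over the 250 bases before the start, GGAATTTCC, a sequence of the kind bound by NF-kB, was found once in CXCL8, CXCL1, CXCL2, CXCL3, CXCL5 and CXCL6, and in 0.413% of 35116 RefSeq promoters. It lay 91 to 83 bases before the start in CXCL8, 78 to 70 in CXCL1 and CXCL3, 77 to 69 in CXCL2, 90 to 82 in CXCL5 and 89 to 81 in CXCL6. Neither these letters nor TGANTCA were found in the same stretch before CCL20. Only these exact letters were searched, so other forms of an NF-kB site, there or elsewhere, were not looked for. The AP-1 consensus TGANTCA was found in CXCL8, 137 to 131 bases before the start, and in 6.57% of promoters. The windows of CXCL1 and CXCL3 were identical at 86.0% of 150 positions without gaps, and those of CXCL1 and CXCL8 at 29.3%. The letters were thus also present before CXCL5, which was not tested, and CXCL6, which was not called. The windows are chr4:73740419-73740568 (CXCL8), chr4:73869243-73869392 (CXCL1), chr4:74099196-74099345 (CXCL2), chr4:74038690-74038839 (CXCL3) and chr4:73836528-73836677 (CXCL6).

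CXCL6 (granulocyte chemotactic protein 2; chr4:73836497-73849064, plus strand) was not called, and its ZQ libraries differed from each other. They held 1.63, 1.92 and 15.5 CPM, against 5.35, 3.51 and 5.88 CPM in control libraries. In counts these were 3, 4 and 28 with ZQ and 79, 61 and 77 in controls, so ZQ replicate 3 carried most of the 35 ZQ counts and alone lay above the controls. The log2 change was 0.36 ± 0.82 (SE, edgeR adjusted p = 0.76) with all libraries and -1.55 (edgeR adjusted p = 0.096) without ZQ replicate 3. CXCL5 (epithelial neutrophil-activating protein 78; chr4:73995642-73998779, minus strand) had 1, 0 and 0 counts in ZQ and 0, 1 and 2 counts in control libraries. Both groups were at or under a floor of 3 counts, and no fold is given.

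CCL2, the monocyte attractant MCP-1, lies on another chromosome (chr17:34255218-34257203, plus strand) and also fell. It had 92, 93 and 86 counts in ZQ libraries, against 2662, 2766 and 2531 counts in the deeper control libraries. In CPM the ZQ libraries differed little from each other, and their mean of 47.4 ± 2.72 CPM was 0.266 of the control mean of 178 ± 17.2 CPM (SD, n = 3 each). The groups did not overlap. The log2 change of -1.91 ± 0.19 (SE, edgeR adjusted p = 7.5e-05) had the smallest adjusted p of the 8 genes. It was called under all 18 alternatives, between -2.31 and -1.46. CCL20 (chr2:227805739-227817564, plus strand), the CCR6 ligand, had 0, 0 and 6 counts in ZQ and 27, 26 and 24 counts in control libraries. At the control level the ZQ libraries would hold 3.16, 3.59 and 3.11 counts, so a moderate difference was not detectable at this depth. Pooled over libraries and corrected for depth, the level in controls was 1.63 times that in ZQ cells, with a 95% exact counting interval of 0.714 to 4.57, which covers counting error only. The log2 change was -0.68 ± 1.07 (SE, edgeR adjusted p = 0.65). Without ZQ replicate 3, which held all 6 ZQ counts, it was -7.10 (edgeR adjusted p = 0.035), a fitted value that depends on the prior count, since both remaining ZQ libraries were at 0.

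**Figure D2:**
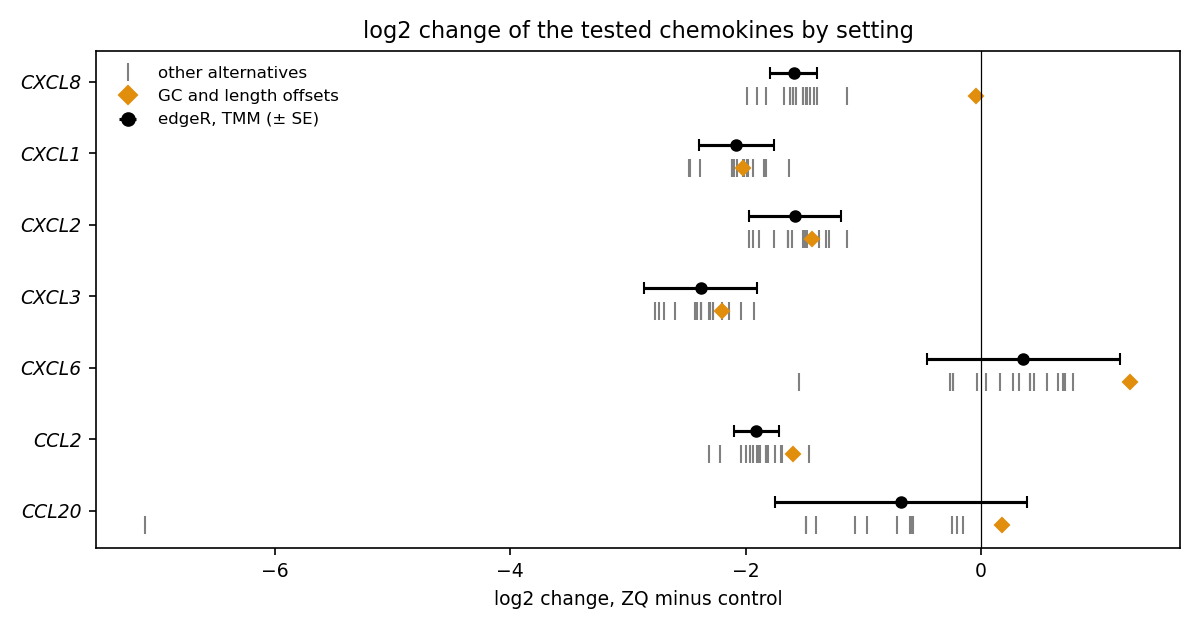
log2 change, ZQ minus control, of the 7 tested chemokines. Black points with bars are the edgeR value with TMM scaling ± SE (3 libraries a group), orange diamonds are the fit whose offsets correct for GC content and length, and grey ticks are the other alternatives. CXCL1, CXCL3 and CCL2 stay between -2.77 and -1.46, CXCL8 moves to -0.04 with the offsets, and CXCL6 and CCL20 lie on both sides of 0.

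The order of the mean levels, per kb of the longest coding transcript so that genes can be compared, was the same in both groups. In ZQ cells CCL2 stood at 63.9 ± 3.67, CXCL8 at 36.0 ± 6.64, CXCL1 at 17.9 ± 5.93, CXCL2 at 12.7 ± 5.07, CXCL3 at 5.31 ± 2.32, CXCL6 at 3.69 ± 4.61, CCL20 at 1.32 ± 2.28 and CXCL5 at 0.0714 ± 0.124 CPM per kb (SD, n = 3). In control cells CCL2 stood at 240 ± 23.2, CXCL8 at 108 ± 6.56, CXCL1 at 75.7 ± 12.5, CXCL2 at 37.8 ± 4.39, CXCL3 at 27.4 ± 5.49, CXCL6 at 2.86 ± 0.724, CCL20 at 2.05 ± 0.23 and CXCL5 at 0.0276 ± 0.0304 CPM per kb (SD, n = 3). In ZQ cells CCL2 stood clear of CXCL8 and CXCL8 of CXCL1, while CXCL1 overlapped with CXCL2, CXCL2 and CXCL3 met at 7.08 CPM per kb, and from CXCL3 downward each neighbouring pair overlapped. In control cells no neighbouring pair overlapped except CXCL6 and CCL20.

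Ratios between chemokines within a library do not depend on scaling, and they show whether the transcripts kept their proportions. Among the 6 genes with a count in every library 15 pairs were compared, and in 5 pairs the groups did not overlap. The smallest p that 3 against 3 libraries can reach in an exact two-sided permutation test is 0.1, which is 0.3 after adjustment over the 15 pairs, so no ratio could pass. CXCL2 outnumbered CXCL3 by 2.71, 3.00 and 2.58 to 1 in ZQ libraries, against 1.53, 1.77 and 1.44 to 1 in control libraries. That log2 difference of 0.81 stayed between 0.74 and 0.89 when any library was left out. CXCL8 outnumbered CXCL1 by 2.70, 3.91 and 3.07 to 1 with ZQ, against 2.34, 1.98 and 2.43 to 1 in controls, a log2 difference of 0.51. The ratio of CXCL8 to CCL2, the neutrophil and monocyte attractants with the most counts, was 1.47, 1.34 and 1.07 in ZQ and 1.04, 1.22 and 0.892 in control libraries, and the groups overlapped. CXCL8 made up 39.3% ± 6.44 of the counts of the 8 genes in ZQ and 35.0% ± 2.39 in control libraries, and CCL2 made up 30.4% ± 2.92 and 33.6% ± 3.04 (SD, n = 3 each). Among the 10 pairs without CXCL6 the log2 differences reached 0.86 at most (CXCL8 to CXCL3), against -1.76 for the size of the pool. These ratios were not corrected for base composition or length. With offsets for both, CXCL8 stood at -0.04 on the log2 scale. CXCL1 then stood at -2.02, CXCL2 at -1.44, CXCL3 at -2.2 and CCL2 at -1.6, so in that fit CXCL8 did not keep its proportion to these genes.

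**Figure D3:**
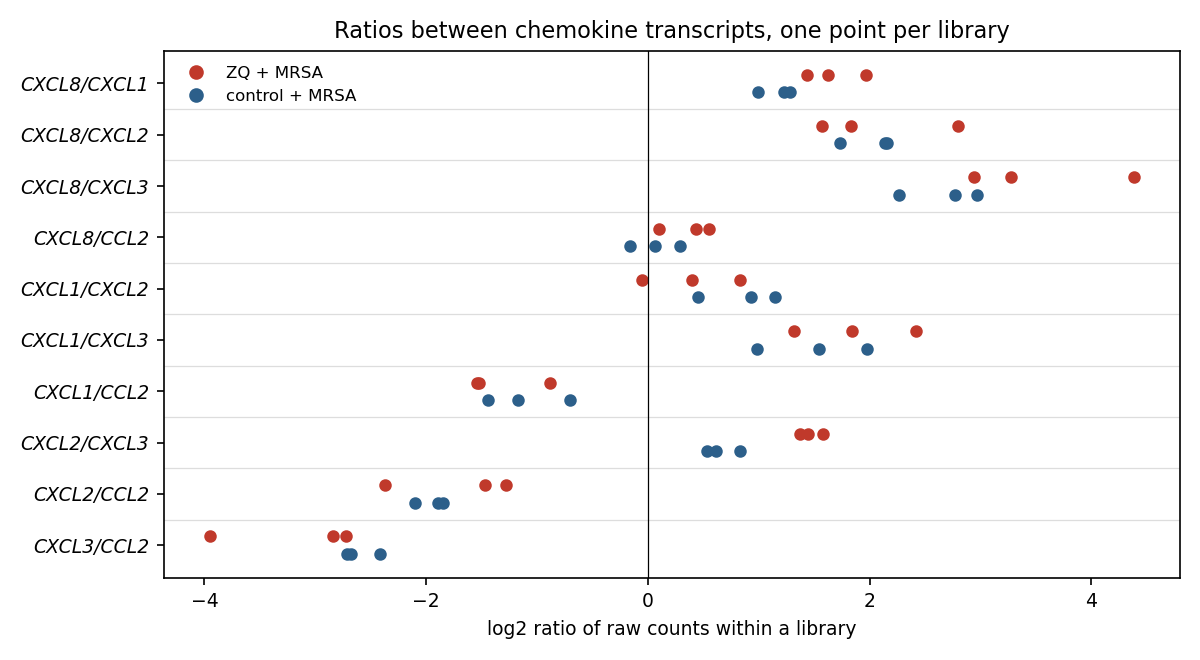
log2 ratio of raw counts between 2 chemokines within each library, for the 10 pairs that do not involve CXCL6. Points are libraries, ZQ above and control below in each row (n = 3 each). The groups are apart for CXCL2/CXCL3, CXCL8/CXCL1 and, narrowly, CXCL3/CCL2, and overlap in the other 7 pairs.

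Fold changes in this experiment followed the base composition of the transcripts, and the chemokines were read against it. Over 11514 tested protein-coding genes the median log2 change was -0.96 in the quintile with the lowest GC content (30.2% to 41.0%), then -0.59, -0.14 and 0.36, and 0.99 in the quintile with the highest. CXCL8 belongs to the lowest quintile, where 29.5% of genes had a more negative change than its -1.59. CXCL1 and CXCL2, with 45.6% and 46.0% GC, belong to the middle quintile, where 6.73% and 12% of genes were more negative. CXCL3 and CCL2, with 44.7% and 41.0% GC, belong to the second, where 8.08% and 14.9% were more negative. With offsets for GC content and length, CXCL1 stood at -2.02, CXCL2 at -1.44, CXCL3 at -2.20 and CCL2 at -1.60 on the log2 scale, all still called. CXCL6 stood at 1.27 and CCL20 at 0.18 with these offsets, both uncalled. The offsets would also remove any effect of ZQ that itself follows GC content or length.

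**Figure D4:**
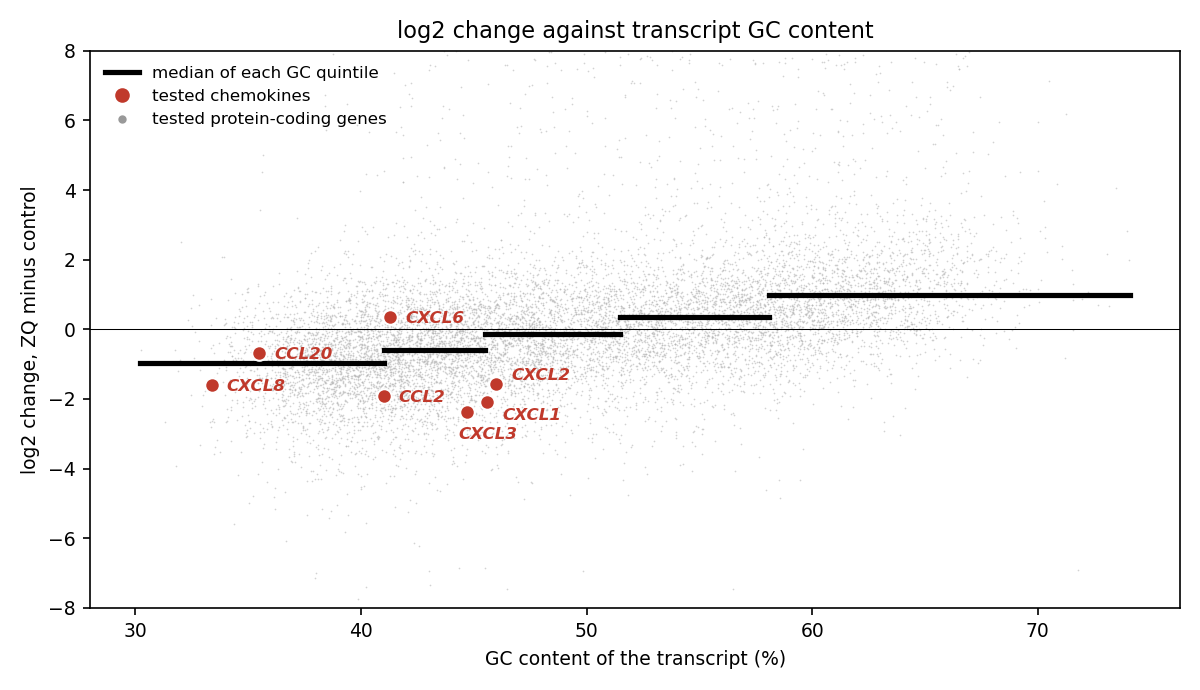
log2 change, ZQ minus control, against the GC content of the longest coding transcript for 11514 tested protein-coding genes (grey; 155 lie beyond the axis limit of 8). Black lines are the medians of the GC quintiles, which run between -0.96 and 0.99, and red points are the 7 tested chemokines. CXCL1, CXCL2, CXCL3 and CCL2 lie further below the median of their quintile than CXCL8 does.

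The genes with profiles most like those of the chemokines were taken by root mean square distance of centred log2 CPM over the 6 libraries, among 9664 genes with a mean of at least 5 CPM. GOLM2, RBBP4, MARS1 and LAYN lay nearest to CXCL8, at 0.086 to 0.11, and Novel00145 (a row with no annotated gene), CD24 and PPME1 were among the nearest to CXCL1, at 0.087 to 0.16. The chemokine nearest to CXCL8 was CCL2 at 0.24, with CXCL1 at 0.31. With 6 libraries in 2 groups such distances mostly record the size of the group difference. On chromosome 4 the tested genes beyond the CXC cluster did not pass: MTHFD2L stood at 0.24, EPGN at -1.16, EREG at -1.96 ± 0.74 and AREG at -1.33 on the log2 scale (edgeR adjusted p = 0.76, 0.18, 0.06 and 0.28). EREG and EPGN encode ligands of the epidermal growth factor receptor. Both had every ZQ library below every control, a separation in this direction that 28.0% of all tested genes also showed. With offsets for GC content and length EREG stood at -0.59 and EPGN at -0.36, both uncalled. EREG varied among ZQ libraries at 16.8, 0.479 and 7.18 CPM, against 39.1, 28.9 and 26.2 CPM in control libraries, and was called in 8 of the 18 alternatives. The platelet chemokines PF4 and PPBP, inside the cluster and named after their values were seen, had no count in any library.

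Of 36 further chemokine ligands 4 passed the filter, and none was called lower or higher, beside 19.0% and 19.3% of all tested genes. CXCL16, the CXCR6 ligand, had 5.98, 4.79 and 12.7 CPM in ZQ and 1.96, 3.68 and 0.534 CPM in control libraries (log2 change 1.90, edgeR adjusted p = 0.075, but called with upper-quartile scaling at 2.35 and by DESeq2 at 2.02). CCL5, which attracts T cells and monocytes, had 12.5, 4.79 and 4.42 CPM in ZQ and 2.64, 2.88 and 3.21 CPM in control libraries (log2 change 1.31, edgeR adjusted p = 0.12). CCL26 and CCL28 stood at 0.58 and 0.51 and overlapped between groups. Of the 36 ligands 13 had no count in any library. The interferon-induced CXCL10 had 2 counts over the ZQ group and 37 over the control group, 2.35 times higher in controls after correction for depth, with a 95% exact counting interval of 0.605 to 20.1. CCL7 (MCP-3), a monocyte attractant singled out after its values were seen, had 0 counts in ZQ and 17, 16 and 21 in control libraries, at least 2.28-fold lower with ZQ with a floor of 3 counts set for the whole group. These 36 genes summed to 47.3, 38.8 and 39.2 CPM in ZQ and 14.5, 16.3 and 12.8 CPM in control libraries. The ZQ sum includes genes with scattered counts, such as CXCL12 with 2, 30 and 2 and CCL25 with 9, 0 and 2. CXCL16 and CCL28, at 15.7 and 2.65 ZQ counts per kb of exon, did not exceed the 99th percentile of the olfactory receptor genes, 16.0. CCL5 and CCL26 did, at 27.1 and 69.4.

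Receptors for chemokines were scarce in these epithelial cells, and of 23 genes 3 passed the filter. Of these 1 was called lower and 1 higher, beside 19.0% and 19.3% of all tested genes. ACKR3, an atypical receptor that removes CXCL12 and CXCL11, was called lower with 1, 1 and 0 counts in ZQ and 164, 185 and 99 in control libraries. After correction for depth it was 28.4 times higher in controls, with a 95% exact counting interval of 7.82 to 235. CCR3, an eotaxin receptor, was called higher with 7, 8 and 6 counts in ZQ and none in control libraries. ACKR3 and CCR3 each passed the filter through a single group, the one in which it was higher. Neither call could therefore have gone the other way. CCR3, at 5.89 ZQ counts per kb of exon, lay below the 99th percentile of the olfactory receptor genes, 16.0, and no fold is given for it. CXCR2, the receptor of the neutrophil chemokines, had 3, 3 and 1 counts in ZQ and 0 in control libraries and was not tested.

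Of 20 genes for receptors and adaptors through which these chemokines are induced 17 were tested. Of these 3 were called lower and 1 higher, beside 19.0% and 19.3% of all tested genes, with a median log2 change of -0.31 against 0.03 over all tested genes. By upper-quartile scaling 2 were called lower and 3 higher, and by library totals 5 lower and 1 higher. IL1RAP, the shared subunit of interleukin-1 family receptors, fell to 1.63, 5.75 and 8.84 CPM in ZQ, against 27.6, 34.2 and 35.3 CPM in control libraries, and its log2 change was -2.58 ± 0.54 (SE, edgeR adjusted p = 0.004), or -1.81 and still called with the offsets. MAP3K7, the kinase TAK1, fell by 1.91 on the log2 scale, but it stood at -0.77, not called, once offsets for GC content and length were fitted. TRAF6, a ubiquitin ligase upstream of that kinase, fell by 1.33 on the log2 scale and was called in 8 of 18 alternatives. IL1RAP rested on 3, 12 and 16 ZQ counts. IL1RAP and TRAF6, at 2.68 and 12.5 ZQ counts per kb of exon, did not exceed the 99th percentile of the olfactory receptor genes, 16.0. IRAK1, the kinase that relays interleukin-1 and Toll-like signals, was higher, with 235, 199 and 310 CPM in ZQ and 47.6, 66.7 and 47.9 CPM in control libraries (log2 change 2.20 ± 0.23, edgeR adjusted p = 9.2e-05), and those offsets put it at 1.14, still called. TLR2, which recognises staphylococcal lipoproteins, had 1, 4 and 0 counts in ZQ and 13, 6 and 7 in control libraries and did not pass the filter, nor did TLR1 and TLR6 (all 3 named after their values were seen).

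Of 16 NF-kB genes 4 were called higher and 3 lower, shares near the 19.3% and 19.0% of all tested genes, with a median log2 change of -0.12. By upper-quartile scaling 5 were called higher and 2 lower, and by library totals 4 higher and 7 lower. NFKB2 (p100) had 45.1, 31.1 and 47.5 CPM in ZQ and 4.67, 5.24 and 5.88 CPM in control libraries, and its partner RELB averaged 19.4 ± 11.4 CPM in ZQ and 2.38 ± 0.246 CPM in control libraries (SD, n = 3 each). The log2 changes were 2.97 for NFKB2 and 3.03 for RELB, and those of the inhibitors NFKBIE and TNIP1 were 3.21 and 1.33. Offsets for GC content and length left these 4 genes called at 1.95, 1.74, 2.44 and 0.71. REL, IKBKG and CYLD, named after their values were seen, were the 3 called lower, at -3.73, -1.96 and -1.83. REL rested on 0, 4 and 1 ZQ counts and IKBKG on 8, 13 and 2. At 0.38, 6.52 and 10.2 ZQ counts per kb of exon, REL, IKBKG and CYLD lay below the 99th percentile of the olfactory receptor genes, 16.0. By GC content REL and CYLD belong to the lowest quintile, with a median log2 change of -0.96, and IKBKG to the highest, with 0.99. RELA, the main activating subunit at these promoters, had 59.8, 98.7 and 77.4 CPM in ZQ and 35.3, 73.6 and 21.9 CPM in control libraries, and was not called (0.85 ± 0.42, edgeR adjusted p = 0.13). NFKB1 stood at 0.36. Feedback genes induced by NF-kB itself were not called at -0.40 for NFKBIA, -1.43 for NFKBIZ and -1.22 for TNFAIP3 (edgeR adjusted p = 0.083, 0.058 and 0.10), each called in 4 of 18 alternatives.

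AP-1 and C/EBP factors were called higher in 3 of 11 tested genes and lower in none, beside 19.3% and 19.0% of all tested genes, with a median log2 change of 0.81. By upper-quartile scaling 6 were called higher, by library totals 2 higher and 1 lower, and after fitting offsets for GC content and length 2 higher and 2 lower. CEBPB, which binds many inflammatory promoters, had 24.4, 32.1 and 35.4 CPM in ZQ and 4.47, 4.43 and 4.89 CPM in control libraries, and its log2 change was 2.73 ± 0.41 (SE, edgeR adjusted p = 0.00067) and 1.35 with those offsets. FOSB was higher at 1.67, and JUN, at 1.18, was called in 8 of 18 alternatives. JUND, at 1.12, was not called, and those offsets put it at -0.53. Regulators of chemokine mRNA decay were called higher in 2 and lower in 1 of 12 genes, beside the same shares of all tested genes, and by upper-quartile scaling higher in 6. CNOT1, the scaffold of the deadenylase complex that shortens poly(A) tails, fell to 20.1, 24.0 and 35.9 CPM in ZQ, against 143, 152 and 148 CPM in control libraries (log2 change -2.47 ± 0.26, edgeR adjusted p = 8.9e-05). HNRNPD (AUF1), which binds AU-rich elements, was higher at 1.31 ± 0.17 (SE, edgeR adjusted p = 0.00031) and at 2.25 with the offsets, and ZFP36L1 was higher at 0.50, called in 13 of 18 alternatives. ZFP36 (tristetraprolin) at 1.53 and the RNase gene ZC3H12A at -0.40 were not called (edgeR adjusted p = 0.11 and 0.79).

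Proteases that cut chemokines or shed their carriers, and the heparan sulfate proteoglycans that hold them at the cell surface, were called lower in 4 and higher in 1 of 11 tested genes, beside 19.0% and 19.3% of all tested genes, with a median log2 change of -0.54. SDC4, a syndecan that binds CXCL8 and other chemokines through heparan sulfate, fell to 103, 76.6 and 43.1 CPM in ZQ, against 370, 426 and 362 CPM in control libraries (log2 change -2.38 ± 0.27, edgeR adjusted p = 0.00014). The sheddases ADAM10 and ADAM17 had log2 changes of -3.57 and -2.88, which the offsets put at -2.98 and -2.08, both called, and SDC2, named after its value was seen, fell by 1.77 on the log2 scale. ADAM10, ADAM17 and SDC2, at 5.44, 4.09 and 11.9 ZQ counts per kb of exon, did not exceed the 99th percentile of the olfactory receptor genes, 16.0. ADAM10 also encodes the cell receptor of staphylococcal alpha-toxin. The collagenase MMP1 was higher, with 210, 167 and 287 CPM in ZQ and 67.7, 52.5 and 61.8 CPM in control libraries (log2 change 1.87 ± 0.23, edgeR adjusted p = 0.00024; 2.62 with the offsets). Among 7 tested mediators that also act on neutrophils and monocytes 1 was called lower and 1 higher, beside the same shares. ANXA1, which restrains neutrophil recruitment, fell to 608, 643 and 626 CPM in ZQ, against 1900, 1440 and 2190 CPM in control libraries, a log2 change of -1.56 that the offsets for GC content and length turned to -0.31, not called. CSF2 (GM-CSF) had 27.7, 29.7 and 12.7 CPM in ZQ and 8.06, 5.06 and 9.24 CPM in control libraries, a log2 change of 1.65 called in 11 of 18 alternatives. CSF1 and the neutrophil adhesion ligand ICAM1 stood at -1.25 and -1.36 and were not called (edgeR adjusted p = 0.089 and 0.15).

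**Figure D5:**
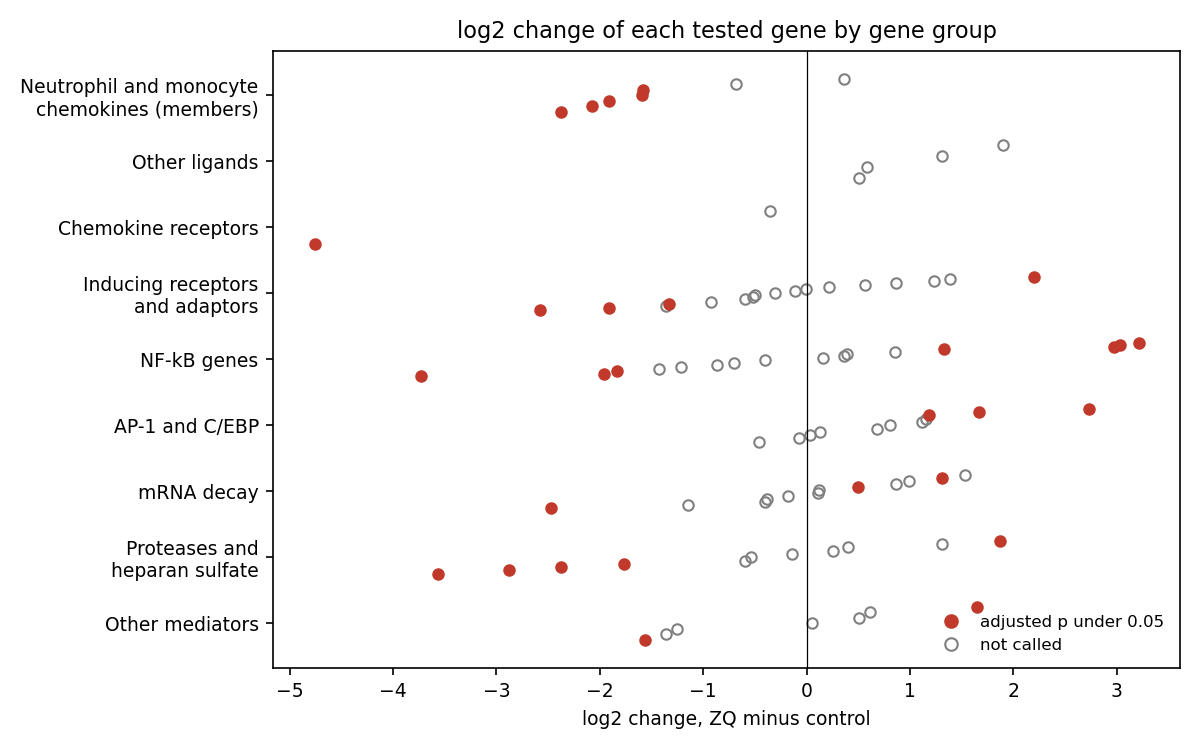
log2 change, ZQ minus control, of each tested gene with counts in both groups, by gene group. Filled red points had an edgeR adjusted p under 0.05 and open points did not; CCR3, with no control count, is not drawn. Of 7 tested chemokines 5 are filled, all below 0. Among 16 tested NF-kB genes 4 are filled above and 3 below 0, and among 11 AP-1 and C/EBP factors 3 above. Of all tested genes 19.0% were called lower and 19.3% higher. CXCL8 was not called once offsets for GC content and length were fitted (-0.04).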

How the data were processed

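RNA sequencing of 6 BEAS-2B libraries was analysed. The authors deposited raw read counts for each gene. The submitters' processing notes name the build GRCh38 and list Cufflinks 2.1.1 without saying what it did. Library construction used an NEBNext Ultra kit on DNase-treated TRIzol RNA, per the labels' protocols. For the aligner, counting tool, annotation and strand, what was used is not given in the sources used here. Overlapping and antisense genes may therefore share reads.

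Rows were matched by Ensembl ID to GENCODE release 29, which gave positions, lengths and the GC content of the longest coding transcript. Low counts were filtered with filterByExpr (minimum count 10, minimum total 15), and TMM-scaled counts were tested with edgeR 4.0.16 (R 4.3.3), with p-values adjusted over all tested genes by Benjamini-Hochberg and called at 0.05. An SE is the absolute log2 change over the square root of F. CPM values are TMM-scaled. Alternatives, 18 fits in all, used DESeq2 1.42.0, limma 3.58.1 (voom), other scalings and filters, thinned controls, a replicate block, offsets for GC content and length (mgcv 1.9.3) and each library left out. The fit was tested on simulated data. The genes and lists were chosen with earlier results of these data known. Named genes are the 8 chemokines, up to 4 genes per list with the smallest adjusted p, 11 others fixed by name, the tested neighbours of the 8, and the nearest profiles, of which 1 is not reported here.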

Additional observations from a re-analysis of the deposited data

How the results depend on the processing

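CXCL1, CXCL3 and CCL2 were called lower under all 18 alternatives. CXCL8 was called in 17, and stood at -0.04 with offsets for GC content and length, where 4 of the 8 chemokines were called. CXCL2 was called in 16. Leaving out 1 library at a time gave -1.83 to -1.42 for CXCL8, -2.47 to -1.84 for CXCL1, -1.94 to -1.32 for CXCL2, -2.74 to -2.04 for CXCL3, -2.04 to -1.69 for CCL2, -1.55 to 0.71 for CXCL6 and -7.10 to -0.15 for CCL20, with 4 to 6 chemokines called. CXCL6 changed sign by library totals (-0.03), with limma-voom (-0.24), with a variance per group (-0.24), with the replicate block (-0.26) and without ZQ replicate 3 (-1.55), and CCL20 with the offsets (0.18). CCL20 could not be fitted when a control library was left out or the controls were thinned, since the filter then removed it.

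Over all genes 4978 were called, 11603 without a low-count filter, and 2794 to 5407 with 1 library left out; the lowest counts were without control replicate 1 (2794) and control replicate 3 (3040). Same-numbered libraries correlated at 0.00944, 0.0371 and 0.0316 in their deviations from the group means. Libraries with different numbers correlated at -0.0348 to 0.00858. The same-numbered values were thus the highest, though all were small, and they do not settle whether replicate numbers pair the libraries. With the replicate block 4405 genes and the same count of 5 chemokines were called. Signs of uncalled genes also turned. CCL26 stood at -0.71 and -0.70 with the voom fits, -0.24 with the offsets and -0.37 (without ZQ replicate 1) to 1.07 with a library left out. CCL28 stood at -0.51 with both voom fits, -0.33 with the block and -2.61 (without ZQ replicate 3) to 0.99 with a library left out. CCRL2 stood at 0.09 with upper-quartile scaling and -2.44 to 0.17 (without ZQ replicate 2) with a library left out, JUND at -0.53 with the offsets, NFKB1 at -0.03 by library totals and NFKBIA at 0.05 with upper-quartile scaling. ZC3H12A stood at 0.05 with upper-quartile scaling, 0.02 with the block and -1.10 to 0.11 (without ZQ replicate 2) with a library left out. MTHFD2L stood at -0.15 by library totals, -0.07 without the filter and -0.56 (without ZQ replicate 3) to 0.53 with a library left out. The causes of these changes were not tested. Low ZQ depth limits what can be said of CXCL3, CXCL5, CXCL6 and CCL20, and spread was greater in ZQ libraries (biological coefficient of variation 0.522) than in controls (0.265).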
